A study of Mus musculus with 12 samples.

Results

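The miR-183/miR-96/miR-182 cluster is a group of 3 microRNA hairpins, Mir183, Mir96 and Mir182, and its members here were the mature arms cut from them, chosen by name. Each hairpin gives a 5p arm and a 3p arm, so the cluster had 6 members among the 1978 miRNA entries that were counted (mmu-mir-183-5p, mmu-mir-183-3p, mmu-mir-96-5p, mmu-mir-96-3p, mmu-mir-182-5p and mmu-mir-182-3p, written below without the species prefix). Small RNA was sequenced from colon and from blood of 6 male C57BL/6 mice aged 8 weeks, which made 12 libraries in 4 groups of 3. DSS mice (mice 1, 7 and 9) drank 1.5% dextran sulfate sodium, which injures the colonic epithelium and causes an acute colitis, over 7 days. Control mice (mice 2, 4 and 8) drank water alone, and both groups were sacrificed on day 8. The mice sequenced had been selected by their disease activity index, so they are not a random draw of treated animals, and each library came from 1 mouse. RNA was extracted from blood and from colon with different kits, so kit and tissue cannot be told apart in a comparison of the tissues.

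The labels of the libraries contradict each other, and this bears on each result. The disease state field marks mice 1, 2 and 4 as colitis and mice 7, 8 and 9 as control, whereas the study's heatmaps name mice 1, 7 and 9 as DSS mice, and the grouping of the heatmaps was used. With it, DESeq2 gave colon log2 fold changes of -1.4 for miR-182-5p (adjusted p = 2.9e-05) and -1.2 for miR-183-5p (adjusted p = 0.00025). To these digits they equal the values that the study printed for DSS against control mice. Under the field's grouping, edgeR's quasi-likelihood test called 0 of 542 miRNAs in colon, against 55 (10.1%) under the grouping used, and the cluster's 5p arms had log2 differences of 0.44 to 0.54 (higher in the mice marked colitis) with an adjusted p of 0.991. The source and tissue fields also name opposite tissues for each library, and the tissue field was followed. In control mice the erythroid arms miR-451a, miR-144-5p and miR-486a-5p, which passed the filter on low counts in both tissues, were called higher in the libraries taken as blood than in colon, as were 35.7% of all 680 miRNAs tested. The 4 smooth muscle arms and the 8 epithelial arms of the miR-200 family and of the miR-192 list (miR-192-5p, miR-194-5p and miR-215-5p) were all called lower there, as were 50.7% of all miRNAs tested. The libraries held 15060553 to 20106226 counts in colon and 21127134 to 32944792 in blood.

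miRNAs of a cluster lie close together and can be cut from 1 primary transcript, after which one arm of each hairpin is usually kept by an Argonaute protein and the other is degraded. The kept arm pairs with messenger RNAs mainly through its seed, bases 2 to 8 from its 5′ end, and lowers their translation and stability. The cluster is best known from sensory cells of the eye and the inner ear, and it is also expressed in epithelia, the intestinal lining among them.

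The mature arms are shown because their seeds define which arms can share targets. They were taken from RefSeq (GRCm38.p6), where 6 of 6 members matched, and capitals mark bases 2 to 8.
miR-183-5p: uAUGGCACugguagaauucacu
miR-96-5p: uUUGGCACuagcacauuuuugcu
miR-182-5p: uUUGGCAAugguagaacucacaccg
miR-183-3p: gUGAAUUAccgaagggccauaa
miR-96-3p: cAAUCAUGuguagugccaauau
miR-182-3p: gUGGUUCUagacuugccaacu

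miR-96-5p and miR-182-5p shared bases 2 to 7 (UUGGCA) and differed within the seed by C8A, where the first base is that of miR-96-5p and positions count from the 5′ end. miR-183-5p differed from miR-96-5p within bases 2 to 8 by A2U. Over its whole length miR-183-5p was nearer to miR-182-5p, with the same base at 18 of 22 positions (A2U, C8A, U17C and U22A), than to miR-96-5p, with 13 of 22. The 3p arms shared no seed with a 5p arm or with each other. Among the 1898 entries with a mature sequence, 1 outside the cluster shared bases 2 to 7 with a 5p arm, and it is shown because it has the same bases 2 to 8 as miR-96-5p.
miR-1271-5p: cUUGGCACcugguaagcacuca

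All 3 hairpins lie on the minus strand of mouse chromosome 6 (GRCm38): Mir183 at chr6:30169668-30169737, Mir96 at chr6:30169446-30169551 and Mir182 at chr6:30165918-30165992. Mir183 and Mir96 were 116 bases apart and Mir96 and Mir182 were 3453 bases apart, so the hairpins together spanned 3820 bases. No other gene of GENCODE overlapped them, and RefSeq places them within a long non-coding RNA gene, Mirc35hg (chr6:30158640-30174125). The nearest protein-coding genes were Nrf1, 12460 bases away, and Ube2h, 41552 bases away.

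In the colon, the 5p arms of all 3 hairpins were lower in DSS mice, by 2.45-fold for miR-182-5p, 2.14-fold for miR-183-5p and 2.10-fold for miR-96-5p. Together the members made up 0.567% to 0.624% of all counts in the control colon libraries and 0.256% to 0.370% in the DSS colon libraries, without overlap. Levels below are CPM (counts set to a common library size) scaled by TMM factors within a tissue, and a fold change is the DSS group against the control group.

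miR-183-5p (mmu-mir-183-5p), the most abundant arm in colon, stood at 2252, 1344 and 1263 CPM in DSS mice 1, 7 and 9 and at 3073, 3454 and 3860 CPM in control mice 2, 4 and 8. The groups did not overlap, and DSS mouse 1 was the nearest to the controls. Its log2 fold change was -1.10 (SE 0.24, edgeR adjusted p = 0.0431, n = 3 each). miR-182-5p (mmu-mir-182-5p) stood at 1697, 1089 and 850 CPM in the DSS mice and at 2663, 3063 and 3167 CPM in the controls. Again the groups did not overlap and DSS mouse 1 was the nearest. Its log2 fold change was -1.29 (SE 0.25, edgeR adjusted p = 0.0431, n = 3 each). miR-96-5p (mmu-mir-96-5p), which shares bases 2 to 7 with miR-182-5p, stood at 37.3, 25.5 and 25.4 CPM in the DSS mice and at 56.1, 67.9 and 61.3 CPM in the controls. This arm too was lower in each DSS library than in each control library, and its log2 fold change was -1.07 (SE 0.20, edgeR adjusted p = 0.0431, n = 3 each).

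**Figure D1:**
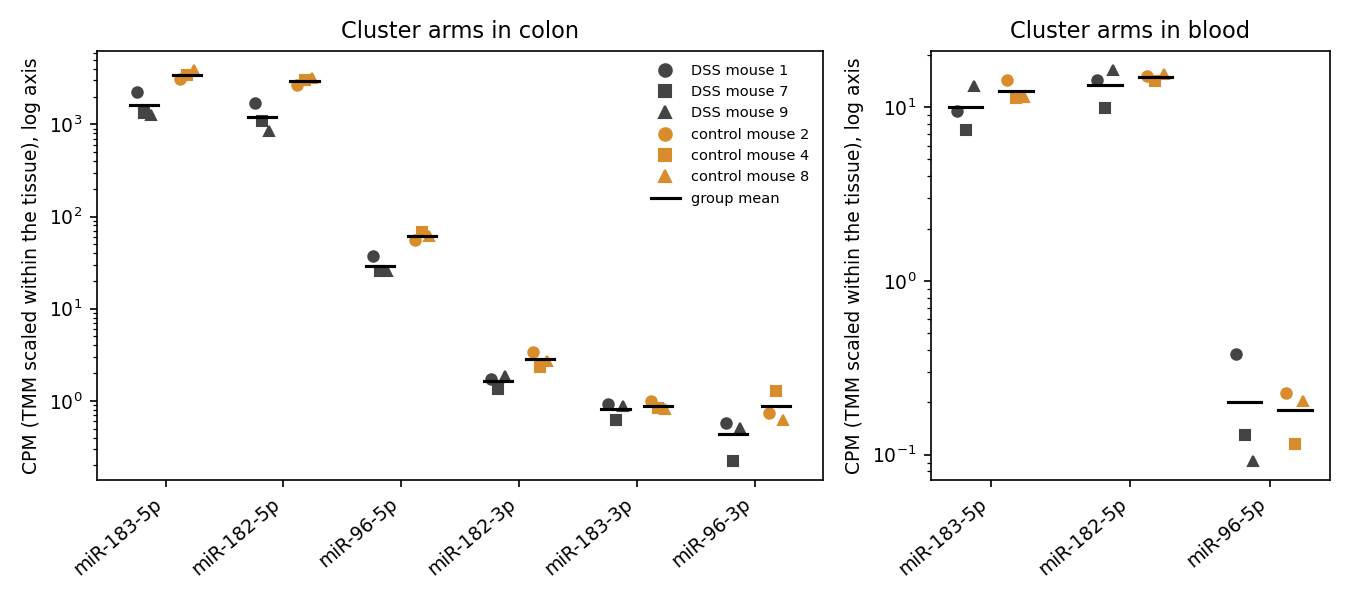
Level of the cluster arms in colon (left, 6 arms) and blood (right, 3 5p arms) as TMM-scaled CPM on a log axis. Points are single libraries, DSS mice in grey and control mice in orange, and bars are group means (n = 3). In colon the grey points of miR-183-5p, miR-182-5p and miR-96-5p lie below all orange points, and in blood they overlap.

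The 3p arms were at the edge of what this depth resolves. miR-182-3p had 24 to 51 counts per colon library, at 1.72, 1.35 and 1.86 CPM in DSS mice 1, 7 and 9 and 3.40, 2.36 and 2.70 CPM in control mice 2, 4 and 8. The groups did not overlap, but its log2 fold change of -0.77 (SE 0.25) did not pass the test (edgeR adjusted p = 0.0890). miR-96-3p had 4 to 21 counts per library, at 0.573, 0.226 and 0.503 CPM in the DSS mice and 0.733, 1.27 and 0.627 CPM in the controls. It had no overlap either, with a log2 fold change of -1.01 (SE 0.47, edgeR adjusted p = 0.180). miR-183-3p had 11 to 23 counts per library, at 0.932, 0.620 and 0.890 CPM in the DSS mice and 1.00, 0.845 and 0.815 CPM in the controls. This arm overlapped between the groups, unlike the 5p arm of the same hairpin, and its log2 fold change was -0.12 (SE 0.30, edgeR adjusted p = 0.806), which turned to 0.11 under scaling by total counts alone and to 0.035 without mouse 7.

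Counted over the cluster, 3 of 6 members were called lower (a fold change above 1.5 with an adjusted p no higher than 0.05), against 4.24% of the 542 miRNAs tested in colon, and 0 were called higher, against 5.90%. DESeq2 also called these 3 lower, against 6.34% of the miRNAs it tested. Each DSS library was below each control library for 5 of 6 members, against 16.1% of all tested. The median log2 fold change of the 6 members was -1.04 and that of all miRNAs tested was 0.043. Scaling by total counts alone moved the median over all miRNAs by 0.22, and with it 9 of 47 calls were lower, against 23 of 55 with TMM factors, 10 of 16 with RLE factors and 4 of 8 with upper-quartile factors. The 3 5p arms remained called under total counts, whereas miR-183-5p missed the threshold with RLE factors (edgeR adjusted p = 0.0522) and with upper-quartile factors (0.0588).

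These calls rest on few libraries. Without mouse 1 all 3 5p arms were called (edgeR adjusted p = 0.0057 to 0.0075), beside 24 of 569 miRNAs called lower in that fit. Without mouse 9 1 was called (miR-182-5p, edgeR adjusted p = 0.0444), beside 11 of 549 called lower, and without mouse 2, 4, 7 or 8 0 of 564 to 568 miRNAs tested were called. The log2 fold changes themselves stayed between -1.62 and -0.95 for the 3 arms over these 6 fits. In a fit of all 12 libraries 0 of 680 miRNAs were called in colon, the members included, with adjusted p of 0.0528 for miR-182-5p, 0.0625 for miR-183-5p and 0.199 for miR-96-5p.

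miR-1271-5p, which has the seed of miR-96-5p but lies outside the cluster, stood at 7.95, 19.1 and 15.6 CPM in DSS mice 1, 7 and 9 and at 10.5, 15.3 and 10.1 CPM in control mice 2, 4 and 8. The groups overlapped, with a log2 fold change of 0.25 (SE 0.34, edgeR adjusted p = 0.629).

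Other miRNAs that mark the intestinal epithelium were lower in the same libraries. The miR-200 family, which holds epithelial cells in their epithelial state by repressing Zeb1 and Zeb2, had 5 of 5 arms with a negative log2 fold change, next to 258 of all 542 tested, with 2 called lower, next to 23 of 542, and a median of -1.09. The called arms were miR-141-3p at -1.17 (edgeR adjusted p = 0.0471) and miR-429-3p at -0.98 (0.0431), whereas the abundant miR-200b-3p, at -1.09 (0.0764), and miR-200c-3p, at -0.84 (0.0739), did not pass. The miR-192 list, abundant in gut and liver epithelium, had 3 of 3 negative with a median of -1.08. miR-192-5p, at -1.29 (edgeR adjusted p = 0.0491), and miR-194-5p, at -1.08 (0.0491), were called and miR-215-5p, at -0.73 (0.194), was not. In bulk tissue, fewer cells of a type and less RNA per cell cannot be told apart.

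**Figure D2:**
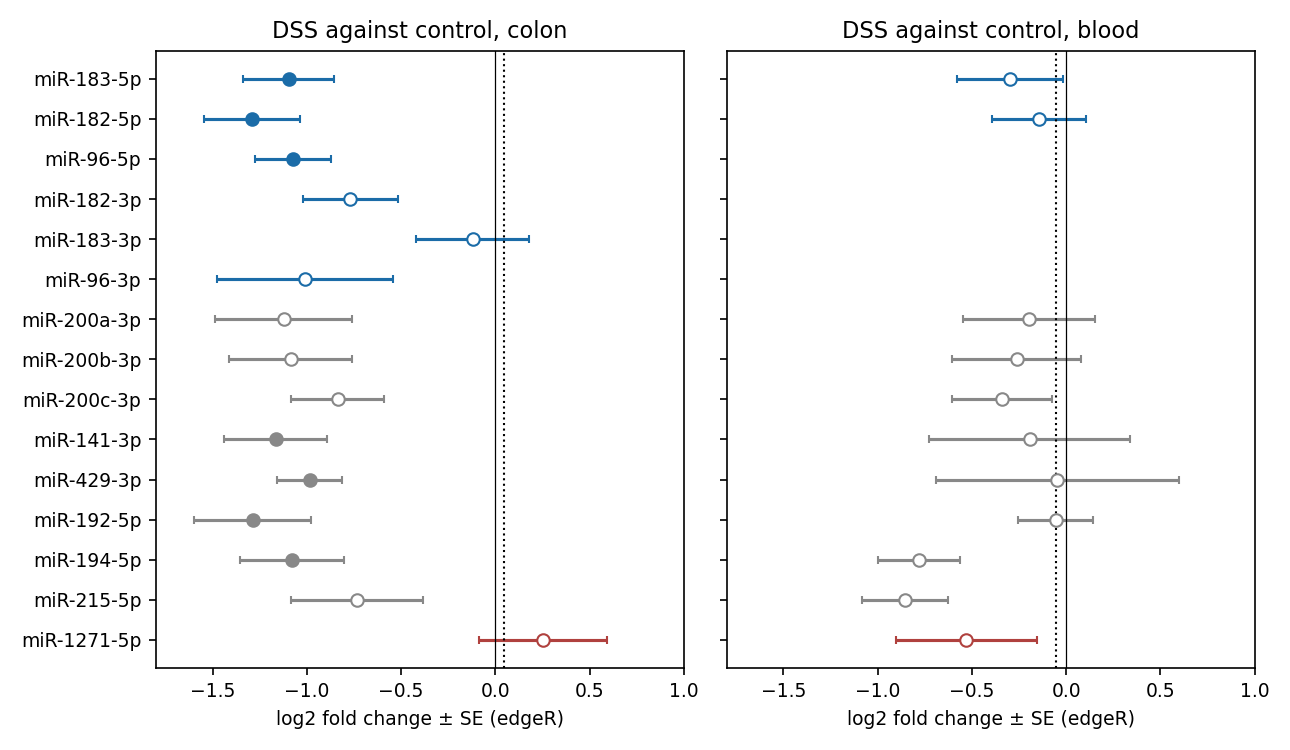
log2 fold change of DSS against control in colon (left) and blood (right), with its SE from edgeR (n = 3 each), for cluster arms (blue), the miR-200 and miR-192 lists (grey) and miR-1271-5p (red). Filled points were called, the dotted line is the median of all miRNAs tested, and arms without a point were not tested. In colon 3 blue points are filled, at -1.10, -1.29 and -1.07, and in blood no point is filled.

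Summed levels were 17823 to 41341 CPM in DSS colon and 52551 to 66570 CPM in control colon for the miR-200 family, without overlap. For the miR-192 list they were 35078 to 80511 CPM and 103131 to 128763 CPM, also without overlap. Of the 3 myeloid arms, miR-223-3p of neutrophils and monocytes was called higher (log2 fold change 1.93, edgeR adjusted p = 0.0431), while miR-142a-3p (adjusted p = 0.0728) and miR-142a-5p (adjusted p = 0.149) did not pass. Their summed level, most of it miR-142a-5p, was 323.6 to 1056 CPM in DSS and 238.8 to 364.3 CPM in control colon, with overlap. Taken alone, miR-223-3p stood at 19.0, 26.8 and 57.9 CPM in DSS mice 1, 7 and 9. In control mice 2, 4 and 8 it stood at 9.67, 9.42 and 8.15 CPM, without overlap. For miR-142a-3p the values were 21.5, 30.2 and 73.3 CPM against 15.3, 15.8 and 10.2 CPM, also without overlap. The sums of the erythroid list (1721 to 2571 against 1690 to 2351 CPM) and the smooth muscle list (256356 to 348817 against 279543 to 358222 CPM) overlapped between the groups. Of their tested arms 0 of 3 and 0 of 4 were called, next to 55 of all 542 (10.1%). The part of these other cell types in the cluster's change was not tested.

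The ratio of the cluster to the epithelial lists did not differ detectably between the groups in colon. The log2 ratio of the summed cluster counts to the summed miR-200 counts within a library was -3.37, -3.40 and -3.06 in DSS mice 1, 7 and 9 and -3.18, -3.34 and -2.97 in control mice 2, 4 and 8. The groups overlapped and differed by -0.11 (exact permutation test, two-sided, p = 0.5, adjusted p = 0.9 over the 15 ratio tests made). Against the miR-192 list the difference was -0.017 (exact permutation p = 0.9, adjusted p = 0.9), from -4.34, -4.23 and -4.03 in the DSS mice and -4.15, -4.29 and -4.10 in the controls. With 3 libraries against 3 this test cannot give a p below 0.1.

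Across the 6 colon libraries the 5 miRNAs most like the mean of the cluster's tested 5p arms, out of 536 compared by Pearson's r of log2(CPM + 1), were miR-192-5p (0.997), miR-1843b-3p (0.988), miR-194-5p (0.981), let-7b-5p (0.979) and miR-141-3p (0.977). The 8 arms of the miR-200 and miR-192 lists all ranked among the 25 most alike, from miR-192-5p in the first place to miR-215-5p (0.918) at rank 25. Within the cluster, miR-183-5p had r of 0.992 with miR-182-5p and 0.983 with miR-96-5p, but 0.395 with its own 3p arm, whose counts were 11 to 23. miR-1271-5p had r of -0.48 with the cluster mean. These values describe 6 libraries that fall into the treatment groups and share their depths and scaling factors.

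**Figure D3:**
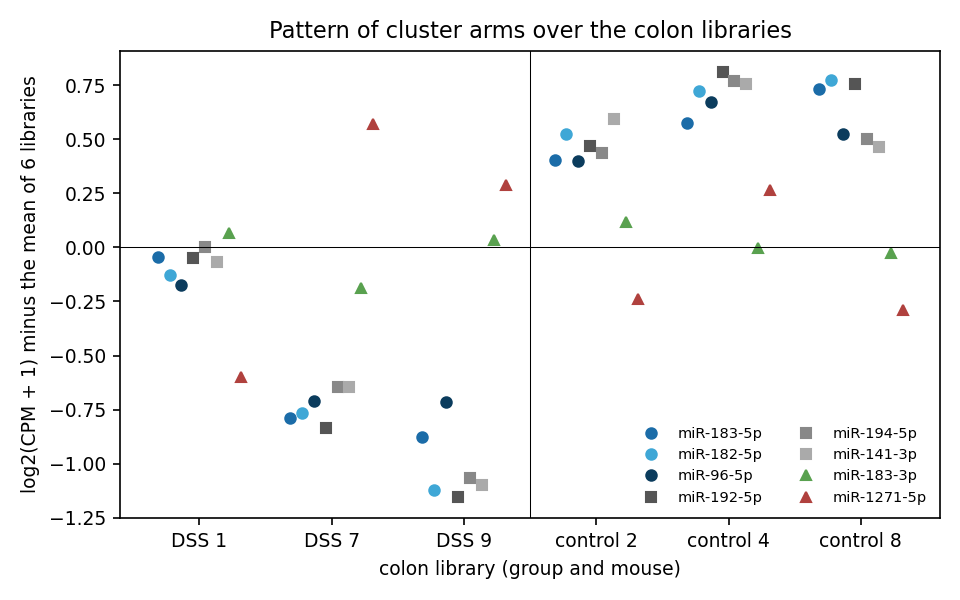
log2(CPM + 1) in each of the 6 colon libraries, minus the mean over them, for cluster 5p arms (blue circles), 3 epithelial arms (grey squares), miR-183-3p (green triangles) and miR-1271-5p (red triangles). Circles and squares lie together in each library, near 0 in DSS mouse 1, low in DSS mice 7 and 9 and high in the 3 controls, and the triangles do not follow them. At 0.620 to 1.00 CPM, miR-183-3p has little room to vary on this scale, because the added 1 compresses its differences.

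The make-up of the cluster was compared by ratios within each library. The log2 ratio of miR-182-5p to miR-183-5p was -0.41, -0.30 and -0.57 in colon of DSS mice 1, 7 and 9 and -0.21, -0.17 and -0.29 in colon of control mice 2, 4 and 8. The groups did not overlap, and the mean difference was -0.21, with the smallest p that 3 against 3 allows (exact permutation p = 0.1, adjusted p = 0.3). The log2 ratio of miR-96-5p to miR-183-5p was -5.76 ± 0.14 (SD, n = 3) in DSS and -5.81 ± 0.16 (SD, n = 3) in control colon and overlapped (difference 0.050, exact permutation p = 0.6, adjusted p = 0.9).

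The 5p arm was the major arm of each hairpin in each colon library. In the miR-183 hairpin the 3p arm made up 0.0414%, 0.0461% and 0.0704% of the reads of both arms in DSS mice 1, 7 and 9 and 0.0325%, 0.0245% and 0.0211% in control mice 2, 4 and 8. The groups did not overlap. The 95% exact binomial interval of DSS mouse 9 (0.0447% to 0.106%) lay above those of control mouse 4 (0.0134% to 0.0411%) and control mouse 8 (0.0112% to 0.0361%), while the other pairs of a DSS and a control library had intervals that overlapped, such as 0.0220% to 0.0707% in DSS mouse 1 and 0.0182% to 0.0536% in control mouse 2. On the log2 scale the ratio of the 5p to the 3p arm was 10.83 ± 0.38 (SD, n = 3) in DSS and 11.83 ± 0.31 (SD, n = 3) in control colon, a difference of -0.998 (exact permutation p = 0.1, adjusted p = 0.3). In the miR-182 hairpin the 3p share was 0.101% to 0.218% in DSS and 0.0768% to 0.128% in control colon, which overlapped (log2 difference of the 5p to 3p ratio -0.59, exact permutation p = 0.3, adjusted p = 0.75). The miR-96 hairpin had the highest 3p share, 0.877% to 1.95% in DSS and 1.01% to 1.83% in control colon, also with overlap (-0.13, exact permutation p = 0.8, adjusted p = 0.9). The intervals cover counting error only, since reads amplified by PCR are not independent molecules.

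**Figure D4:**
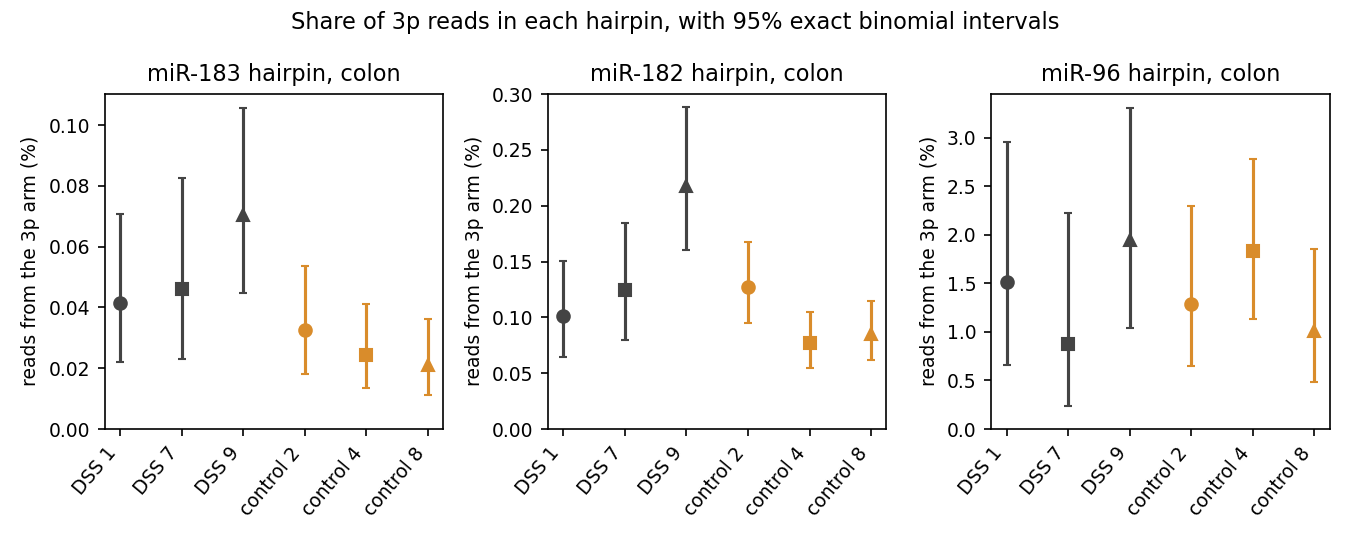
Share of 3p reads among all reads of the miR-183, miR-182 and miR-96 hairpins in the 6 colon libraries, in percent, with 95% exact binomial intervals. DSS mice are grey and control mice orange, and each panel has its own axis from 0. In the miR-183 panel the 3 grey points (0.0414% to 0.0704%) lie above the orange points (0.0211% to 0.0325%). The interval of DSS mouse 9 lies above those of control mice 4 and 8, and the other pairs of a grey and an orange interval overlap.

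In blood the cluster was scarce, at 0.00164% to 0.00320% of all counts in DSS and 0.00187% to 0.00324% in control libraries, and no difference between DSS and control mice was detected. Entries with an identical mature sequence can each count the same reads, and with each sequence counted once these shares were 0.00270% to 0.00510% and 0.00320% to 0.00512%. miR-182-5p was the most abundant arm there, at 14.2, 9.90 and 16.3 CPM in DSS mice 1, 7 and 9 and 15.1, 14.2 and 15.4 CPM in control mice 2, 4 and 8. The groups overlapped, with a log2 fold change of -0.14 (SE 0.25, edgeR adjusted p = 0.920). Its sign was not stable, with 0.088 under scaling by total counts alone and 0.084 without mouse 7. miR-183-5p stood at 9.44, 7.35 and 13.3 CPM in the DSS mice and 14.3, 11.2 and 11.4 CPM in the controls. It overlapped as well, with a log2 fold change of -0.30 (SE 0.28, edgeR adjusted p = 0.736).

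The other 4 arms did not pass the filter on low counts in blood. miR-96-5p had 2 to 15 counts per library, the 15 in DSS mouse 1, and its level of 0.0923 to 0.378 CPM was near the 0.0755 to 0.173 CPM that 3 counts are worth in these libraries. miR-182-3p had 2 counts in each of DSS mice 1 and 9 and 0 in the other libraries, and miR-183-3p had 1 count in DSS mouse 9 and 0 elsewhere. miR-96-3p had 0 counts in all 6 blood libraries. By edgeR's quasi-likelihood test 0 of 2 tested members and 0 of 484 tested miRNAs (0%) were called in blood, with 56 miRNAs and 0 members at an unadjusted p under 0.05. limma also called 0, and DESeq2 called 10 of 287 miRNAs (3.48%) and 0 members. Without the filter on low counts edgeR called 25 of 1121 miRNAs and 0 members.

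The effect of DSS was then compared between the tissues as an interaction over all 12 libraries, where a positive value means that the arm was less lowered in blood than in colon. miR-182-5p had an interaction of 1.45 on the log2 scale (SE 0.41, edgeR adjusted p = 0.153), miR-183-5p of 1.09 (SE 0.39, adjusted p = 0.300) and miR-96-5p of 1.64 (SE 0.69, adjusted p = 0.317, with 34 blood counts in all). miR-96-5p passed the filter on low counts only through its level in colon, so its interaction, which fell to 0.78 without mouse 1, is given as a value and supports nothing, and the same holds for the 3p arms, whose interactions are not given. The median over all 680 miRNAs tested was 0.22, and it turned to -0.18 with RLE factors, -0.10 with total counts alone and -0.25 with DESeq2. Both miR-182-5p and miR-183-5p stayed positive under these settings, between 0.70 and 1.50 over the 9 settings that kept the groups and all mice. By edgeR 0 members and 0 of 680 miRNAs (0%) were called, with 94 miRNAs at an unadjusted p under 0.05, miR-182-5p and miR-183-5p among them. With RLE factors edgeR called 8 of 680 miRNAs and DESeq2 called 37 of 415 (8.92%), with 0 members in both. Without the filter on low counts edgeR called 27 of 1405 miRNAs and 0 members. A DSS effect that differs between colon and blood was therefore not shown for the cluster.

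Between the tissues the cluster differed far more than between the treatments. In the scaling over all 12 libraries, miR-183-5p stood at 2447, 2709 and 2985 CPM in colon and 15.6, 11.7 and 16.2 CPM in blood of control mice 2, 4 and 8. In the DSS mice it stood at 1695, 1045 and 955 CPM in colon and 15.7, 11.3 and 15.1 CPM in blood of mice 1, 7 and 9. The tissues were far apart in each of the 6 mice, with log2 fold changes of blood against colon of -7.55 (SE 0.36, edgeR adjusted p = 4.92e-10) in control and -6.46 (SE 0.34, adjusted p = 6.24e-10) in DSS mice. miR-182-5p had -7.04 (SE 0.37, edgeR adjusted p = 6.82e-10) in control and -5.59 (SE 0.35, adjusted p = 1.81e-09) in DSS mice.

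Both of these arms, the ones that passed the filter on low counts in blood by themselves, were called lower in blood in both groups of mice, against a background of 50.7% of the 680 miRNAs in control and 47.4% in DSS mice. The other 4 members entered this fit only through their colon counts, which fixes the direction of a call, so their calls are not counted. The share of calls that were lower depended on the scaling, with 345 of 588 under TMM and 288 of 590 under upper-quartile factors in control mice, and the median over all miRNAs moved from -1.14 to 0.11. For these 4, counts summed over the 6 libraries of a tissue are given instead, and their ratio uses library sizes scaled by the TMM factors over all 12 libraries, with a 95% interval for counting error only. miR-96-5p had 4573 counts in colon and 34 in blood, a ratio of 119.6 (85.5 to 172.9), or 204.8 by total counts. miR-182-3p had 229 and 4, a ratio of 50.9 (19.6 to 188.5), or 87.2 by total counts. miR-183-3p had 89 and 1, a ratio of 79.2 (13.8 to 3161), or 135.5 by total counts. miR-96-3p had 67 and 0, and the lower limit of the interval of its ratio was 15.7.

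The order of the main arms was turned between the tissues. miR-183-5p had more reads than miR-182-5p in each of the 6 colon libraries, and miR-182-5p had more than miR-183-5p in each of the 6 blood libraries. The log2 ratio of miR-182-5p to miR-183-5p ran from -0.57 to -0.17 in colon (mean -0.32 ± 0.15, SD, n = 6) and from 0.075 to 0.59 in blood (mean 0.36 ± 0.17, SD, n = 6). It was higher in blood in 6 of 6 mice, by 0.68 on average or 1.61-fold (exact permutation p = 0.00216, the smallest that 6 against 6 can give, adjusted p = 0.0162). Colon and blood came from the same mice, and paired within mice an exact sign-flip permutation test gave p = 0.0312, the smallest that 6 pairs can give. After adjustment over the 15 tests it was 0.156. With the smallest p-values that these designs allow, no paired test of this family could pass. That it did not pass was therefore fixed in advance and says nothing about the difference. A within-library ratio does not depend on the scaling factor. Within blood the DSS values of 0.59, 0.43 and 0.29 overlapped with the control values of 0.075, 0.33 and 0.43 (difference 0.16, exact permutation p = 0.5, adjusted p = 0.9).

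The cluster's ratio to the miR-200 family between the tissues turned on 1 arm, miR-200c-3p. With all 5 arms the log2 ratio of the sums was -4.39 ± 0.39 (SD, n = 6) in blood and -3.22 ± 0.18 (SD, n = 6) in colon, lower in blood in 6 of 6 mice by 1.17 on average (exact permutation p = 0.00216, adjusted p = 0.0162; paired p = 0.0312, adjusted p = 0.156). In blood miR-200c-3p made up most of the family, at 335.9 to 681.1 CPM, next to 14.8 to 38.2 CPM of miR-200b-3p. With miR-200c-3p left out of the sum, an alternative chosen after seeing the data, the ratio was -0.092 ± 0.44 in blood and -2.88 ± 0.20 in colon (SD, n = 6), so it was higher in blood in 6 of 6 mice by 2.79. No p-value is given for it, because the arm was left out for its high level in blood. Against the miR-192 list the ratio was -4.52 ± 0.21 in blood and -4.19 ± 0.11 in colon (SD, n = 6), lower in blood in 6 of 6 mice, with ranges that overlapped. That difference of -0.33 passed unpaired (exact permutation p = 0.00866, adjusted p = 0.0433). Paired within mice it had p = 0.0312 (exact sign-flip permutation test, adjusted p = 0.156), in a test that could not pass after adjustment. The ratio of miR-96-5p to miR-183-5p did not differ detectably (0.11, exact permutation p = 0.690, adjusted p = 0.9), with a blood range of -6.59 to -4.55 that its few counts leave wide.

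**Figure D5:**
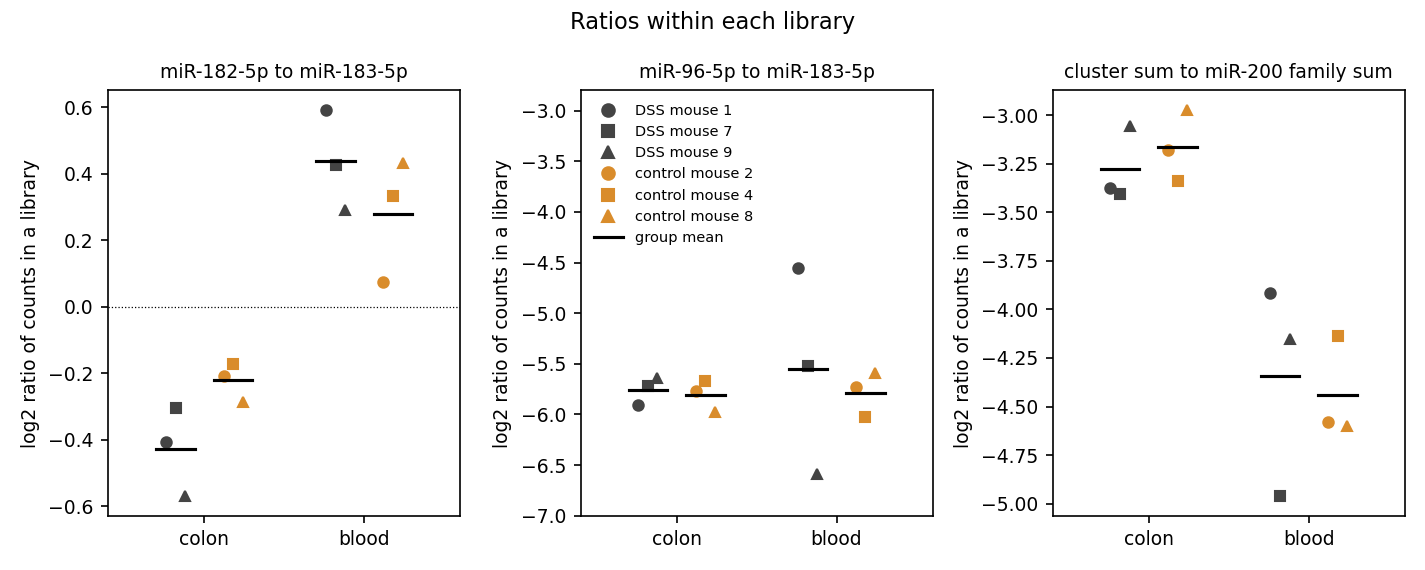
log2 ratios of counts within each library for miR-182-5p to miR-183-5p, miR-96-5p to miR-183-5p, and the cluster sum to the miR-200 family sum, in colon and blood. Points are libraries (DSS grey, control orange) and bars group means (n = 3). In the first panel the 6 colon points lie below 0 and the 6 blood points above it, and in the third the blood points (-4.96 to -3.91) lie below the colon points (-3.40 to -2.97), a direction that turns when miR-200c-3p is left out of the sum.

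In blood the 5 miRNAs most like the mean of the tested cluster arms, out of 482 compared over 6 libraries, were miR-24-1-5p (r = 0.920), miR-1969 (0.864), miR-3098-3p (0.855), miR-92a-1-5p (0.854) and miR-1960 (0.841). Their mean levels in control blood ran from 0.553 to 9.54 CPM, and none of these 5 was among the colon's. Over 6 libraries r is imprecise, so the highest of 482 values can be this large among unrelated miRNAs, which was not tested. Of the 8 epithelial arms, miR-192-5p had the highest r with the cluster mean in blood (0.724), and the other 7 ran from -0.056 (miR-429-3p) to 0.361 (miR-194-5p), a difference from colon that was not tested. miR-182-5p and miR-183-5p had r of 0.875 with each other in blood.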

How the data were processed

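Small RNA of colon and blood from 3 DSS and 3 control mice was analysed. The authors trimmed reads with Flexbar, collapsed them with fastx-toolkit, counted them on mature miRNAs of miRBase 22 with miRDeep2, and deposited unnormalized counts. They also deposited a normalized signal per tissue, the count divided by a DESeq2 size factor, used here only in an alternative as log2(signal + 1) with limma (3.58.1). Counts, 15060553 to 32944792 per library, were fitted with edgeR (4.0.16) in R (4.3.3), with filterByExpr, TMM factors, glmQLFit and glmQLFTest and no covariates, in each tissue alone for DSS against control and over 12 libraries for tissue contrasts and the interaction. p-values were Benjamini-Hochberg adjusted over all miRNAs tested. Called means a fold change above 1.5 with an adjusted p no higher than 0.05. The SE is the log2 fold change divided by the root of F. Ratios used a pseudocount of 1 count and exact permutation tests in Python (3.11.15, scipy 1.17.1). DESeq2 (1.42.0) and other factors, filters, groupings and omissions were alternatives. The tests were checked on simulated counts. Sequences and positions come from RefSeq and GENCODE (GRCm38). Named were all members, the 5 miRNAs most like the cluster's tested 5p arms per tissue, entries sharing bases 2 to 7 with a 5p arm, and up to 4 arms per list. Members and lists were chosen with earlier results of these data known. Mouse numbers pair colon with blood because they name the same mouse. Deviations of paired libraries from their group means correlated with r between -0.27 and 0.07 over 680 miRNAs. miRNA targets and total RNA were not analysed here.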

Additional observations from a re-analysis of the deposited data

How the results depend on the processing

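With the grouping kept, the 5p arms stayed lower in DSS colon in all 16 alternatives to the main analysis. The number called there was 3, but 2 with RLE and with upper-quartile factors, 0 with all 12 libraries in 1 fit, which called 0 of 680 miRNAs, and 0 to 3 when each mouse was left out, with 0 to 44 miRNAs called in all; the cause was not tested. Under the grouping of the disease state labels 0 were called, and the log2 values turned to 0.54 for miR-182-5p, 0.44 for miR-183-5p, 0.53 for miR-96-5p, 0.34 for miR-182-3p, 0.25 for miR-183-3p and 0.93 for miR-96-3p in colon, and to 0.062 for miR-182-5p and 0.12 for miR-183-5p in blood. The interaction turned to -0.57 for miR-182-5p and -0.44 for miR-183-5p. The log2 ratio of miR-182-5p to miR-183-5p moved to 0.12 in colon and -0.050 in blood, and the 5p to 3p ratio to 0.35 for miR-183 and 0.40 for miR-182 in colon. The sign of miR-183-3p in colon turned with total counts alone (0.11) and when each mouse was left out (-0.22 to 0.035, positive without mouse 7), and that of miR-182-5p in blood with total counts alone (0.088), when each mouse was left out (-0.26 to 0.084, positive without mouse 7) and with all 12 libraries in 1 fit (0.11). Blood against colon, miR-182-5p and miR-183-5p were called lower in both groups of mice. Of all 680 miRNAs, 50.7% were called lower in control and 47.4% in DSS mice. The other 4 members were kept only through their colon counts, which fixes the direction of a call, so their calls are not counted. Where each library had to hold 10 or more counts, only miR-182-5p and miR-183-5p were tested, and both were called lower. Of all 288 miRNAs then tested, 112 were called lower in control and 111 in DSS mice. The ratio of the cluster to the miR-200 family between the tissues turned from -1.17 to 2.79 with miR-200c-3p left out of the family sum, which was chosen after seeing the data. The ratio of miR-96-5p to miR-183-5p between the tissues turned to -0.045 with a pseudocount of 0.5 and ran from -0.14 to 0.32 when each mouse was left out. Between DSS and control colon, leaving out each mouse gave -0.035 to 0.13 for that ratio and -0.39 to 0.084 for the 5p to 3p ratio of miR-96. For the cluster against the miR-192 list it gave -0.099 to 0.051. The 5p to 3p ratio of miR-182 stayed negative there, at -0.82 to -0.28. The replicate block by mouse changed no call of a member: miR-182-5p kept an interaction of 1.50 (edgeR adjusted p = 0.222) and miR-182-5p and miR-183-5p were called between the tissues, but of the 4 ratios between the tissues, the 3 that passed unpaired had p = 0.0312 in exact sign-flip permutation tests within mice (adjusted p = 0.156), and miR-96-5p to miR-183-5p had p = 0.656. It does not apply to DSS against control within a tissue, where no mouse is in both groups. The 3p arms and the blood values of miR-96-5p are limited by counts of 0 to 51.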
